A study of Mus musculus with 20 samples.

Results

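Mlkl, Ripk1, Ripk3, Zbp1, Casp8, Cflar, Fas, Fadd and Sharpin are 9 mouse genes that set whether a cell survives, dies by apoptosis or dies by necroptosis when a death receptor or an innate sensor is engaged. They were picked by symbol, and each symbol matched 1 of the 55891 Ensembl gene IDs in the table of counts. RNA was sequenced from 20 libraries of primary mouse renal tubular epithelial cells. The cells were heterozygous (het) or knockout (KO) for Ptprz1, a receptor-type tyrosine phosphatase, and the strain label B6.129-Ptprz1tm1Nmo is shared by all groups. Within each genotype 5 libraries were untreated controls and 5 came from cells given lipopolysaccharide (LPS, 100 ng/mL) with interferon gamma (IFNγ, 10 ng/mL) for 24 h. Compared were stimulated with control cells of a genotype, KO with het cells of a state, and the KO response with the het response. No wild-type group was analysed here, and no age of the animals is stated in the labels.

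Fas recruits the adaptor FADD and caspase-8, which starts apoptosis and also cuts RIPK1 and RIPK3. When caspase-8 is held back, RIPK1 or the nucleic acid sensor ZBP1 activates RIPK3 through a shared RIP homotypic interaction motif. RIPK3 then phosphorylates MLKL, which breaks the plasma membrane. Interferons are known inducers of ZBP1 and MLKL, and necroptosis of tubular cells is a known form of injury in the kidney.

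Levels are given in CPM, the usual counts-per-million unit, TMM-scaled and over the genes tested, with replicates in the order 1 to 5. Total counts per library ran from 12899528 to 20411411. The labels name 10 animals with 2 libraries each, and animals 5 and 7 stand under both genotypes. Both libraries of animals 4 (het replicate 5) and 8 (KO replicate 4) went against their labels in genes that the stimulus induces. Nos2, the inducible nitric oxide synthase, was at 82.9 CPM in the library labelled het control replicate 5 and at 203 CPM in that labelled KO control replicate 4, and at 0 in both of their stimulated partners. Group comparisons of the 9 genes are therefore given for all 20 libraries as labelled and for the 16 libraries without animals 4 and 8, and fold changes of other genes for the 16 only. These animals were left out because of an outcome that several of the 9 genes share, so the calls in the 16 libraries describe those libraries and are no independent evidence. Ptprz1 itself had 0 to 7 counts in a library, with the highest counts, 6 and 7, in the libraries labelled KO of animal 8, so it gave no check of the genotype labels at this depth.

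Cell type markers were read in all 20 libraries. The tubular transcription factors Pax8 and Pax2 were at 41.8 CPM or more in every library, whereas Slc34a1, the phosphate transporter of the proximal tubule, was at 0 in 17 libraries and never above 0.769 CPM. Lrp2, another of the tubular markers, was at 1 CPM or more in all 20 libraries and reached 232 CPM. The low Slc34a1 alone therefore does not show that expression of the proximal tubule was missing. The epithelial adhesion genes Epcam and Cdh1 were under 1 CPM in 6 and 5 libraries, both of them in libraries of animals 2, 6 and 10. The tubular marker Krt8 was also lowest in the libraries of these animals. The 6 fibroblast markers, mostly Col1a1 and Col1a2, summed to between 31.0 and 13120 CPM. The 10 leukocyte markers summed to between 4.41 and 328 CPM. Cd3e, a T cell gene, was at 0 in every library. By contrast, the myeloid gene Lyz2 reached 215 CPM, and the macrophage genes Cd68, Csf1r and Adgre1 reached 42.7, 40.4 and 29.6 CPM. In bulk RNA, fewer cells of a type and less RNA per cell cannot be told apart.

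In the 16 libraries, transcripts of the sensor, the kinase RIPK1, the executioner, the death receptor and the caspase-8 inhibitor were higher after the stimulus. Zbp1, Mlkl, Ripk1, Fas and Cflar rose in both genotypes, and Sharpin rose in KO cells by edgeR and in both genotypes by DESeq2. By edgeR with 4 group means, Ripk3, Fadd and Casp8 did not pass in either genotype, although Casp8 passed in het cells once the animal entered as a block. In all 20 libraries as labelled, edgeR called none of the 9 in any comparison, while DESeq2 called 4 in het and 1 in KO cells.

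The test was edgeR's quasi-likelihood test with Benjamini-Hochberg adjustment over all genes tested, and a gene was called at an adjusted p under 0.05. In the 16 libraries 5 of the 9 genes were called higher in het cells, where 7.15% of 14630 genes were called at all and 5.67% were called higher. In KO cells 6 of the 9 were called higher, where 5.76% of genes were called and 4.81% were called higher. The median log2 fold change of the 9 genes was 0.61 in het and 0.57 in KO cells, against -0.026 and -0.0059 over all genes.

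In the 20 libraries edgeR called 0% of 14568 genes in each of the 5 comparisons, although 1981 genes in het and 1307 in KO cells had an unadjusted p under 0.05 for the response. Of the 9 genes, 6 were under 0.05 unadjusted in het cells (Cflar, Mlkl, Ripk1, Fas, Sharpin and Zbp1) and 4 in KO cells (Sharpin, Ripk1, Mlkl and Fas). DESeq2 on the same 20 libraries called Cflar, Mlkl, Ripk1 and Fas in het cells, 4 of 9 against 3.32% of all genes, and Sharpin in KO cells, 1 of 9 against 0.789%. The median log2 fold change of the 9 was 0.49 in het and 0.41 in KO cells, against -0.015 and -0.0027 over all genes.

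The ranges of the groups tell the same comparison without a model. With 20 libraries the stimulated group lay wholly above the control group for 0 of the 9 genes in each genotype, where 0.329% of tested genes did so in het and 0.35% in KO cells. With 16 libraries it did so for 6 of 9 in het cells (7.25% of genes) and for 6 of 9 in KO cells (10.6%). In both genotypes these were Zbp1, Ripk1, Mlkl, Fas, Cflar and Sharpin.

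**Figure D1:**
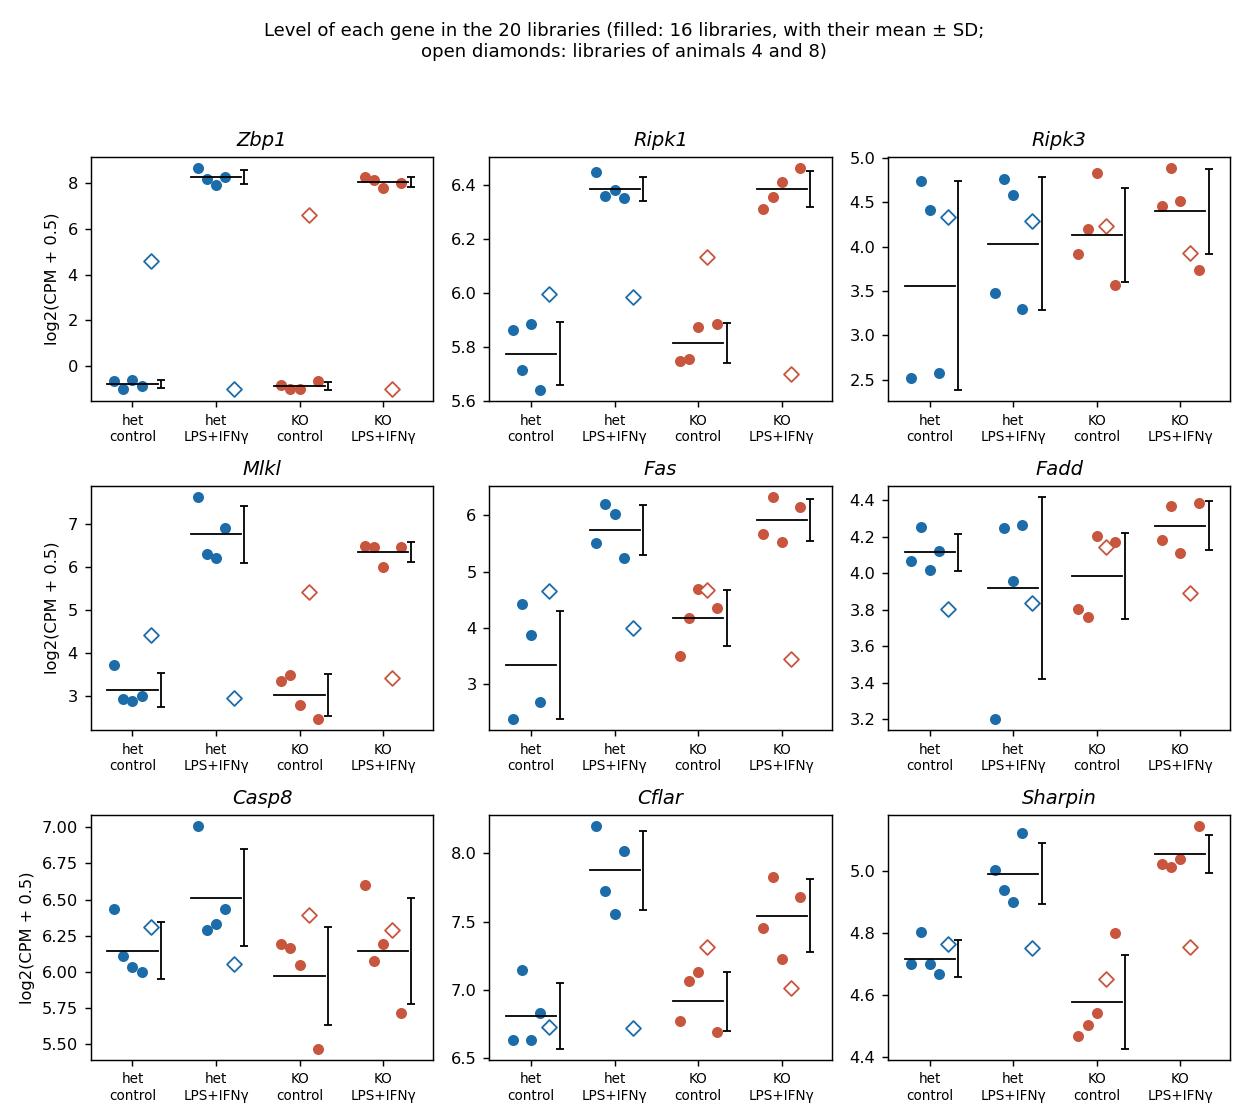
Level of each gene in every library, as log2(CPM + 0.5), by genotype and treatment; filled points are the 16 libraries with their mean (line) and SD (bar, n = 4), and open diamonds are the libraries of animals 4 and 8. The diamonds of Zbp1 sit high in the control groups (23.8 and 95.2 CPM) and at 0 in the stimulated groups.

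Zbp1 (ENSMUSG00000027514) encodes the sensor of Z-form nucleic acids that can bind RIPK3 directly. In het controls it was at 0.134, 0, 0.164, 0.0513 and 23.8 CPM, and in stimulated het cells at 404, 289, 242, 307 and 0 CPM. In each group 4 libraries lay close together and the fifth replicate, from animal 4, lay on the level of the other group or between them. KO controls were at 0.0583, 0, 0, 95.2 and 0.146 CPM and stimulated KO cells at 308, 280, 220, 0 and 258 CPM, with replicate 4, from animal 8, standing apart in the same way. The 5 libraries at 0 counts allow a level of up to 0.156 to 0.194 CPM each (3 counts).

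Without those animals, the het controls held 7 counts of Zbp1 in total against 20396 in the stimulated libraries, a ratio of scaled levels of 3372 (95% interval 1636 to 8387). In KO cells the totals were 3 and 18264 counts, a ratio of 5889 (2015 to 28558). These intervals cover counting error only. Within the 20 libraries as labelled the ratios were 52.0 in het and 11.7 in KO cells. edgeR gave adjusted p = 1.12e-09 in het and 1.46e-09 in KO cells with 16 libraries, and 0.282 and 0.695 with 20. The fitted log2 fold changes depended on the prior count because the controls were near 0, so the ratios of counts are the ones to read.

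Ripk1 (ENSMUSG00000021408) encodes the kinase that scaffolds survival signalling at the TNF receptor and can start both forms of death. Het controls were at 57.7, 52.0, 58.6, 49.4 and 63.4 CPM and stimulated het cells at 87.0, 81.7, 82.9, 81.2 and 62.9 CPM. KO controls were at 53.3, 53.5, 58.2, 69.7 and 58.6 CPM and stimulated KO cells at 78.9, 81.4, 84.7, 51.6 and 87.8 CPM. The rise was small and even: in the 16 libraries every control lay between 49.4 and 58.6 CPM and every stimulated library between 78.9 and 87.8 CPM. The edgeR log2 fold change was 0.61 ± 0.08 (SE, 4 against 4 libraries; adjusted p = 7.80e-05), or 1.53-fold, in het cells. In KO cells it was 0.57 ± 0.08 (adjusted p = 1.52e-04), or 1.49-fold. With 20 libraries the edgeR values were 0.49 ± 0.13 (adjusted p = 0.112) and 0.39 ± 0.13 (adjusted p = 0.339). Ripk1 overlaps Serpinb6a on the opposite strand, and no source used here gives the strand setting of the counting.

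Stretches of the Ripk1 and Fas promoters are printed because these were the only members with a match to TTCNNNGAA, the letters of the gamma-activated site, a promoter element known from IFNγ-induced genes. Promoters came from RefSeq (GRCm38.p6). The table held 8 promoters of 7 of the 9 genes, with 2 for Ripk1, and none for Zbp1 and Sharpin. The 250 bases before each start were searched on both strands. Capitals mark the match.
Ripk1, chr13:34002756-34002784, plus strand, 108 to 100 bases before the start: agaagctggtTTCCCGGAAggggcggagg
Ripk1, chr13:34002853-34002873, plus strand, 11 to 3 bases before the same start: acttcaaacgTTCCCGGAAat
Fas, chr19:34290556-34290584, plus strand, 93 to 85 bases before the start: tcaaagcgatTTCTGGGAAgacctgaata

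Both Ripk1 matches held the same 9 letters. The pattern was in 2 of the 8 promoters, and 7.02% of 32851 mouse promoters of this length held it. The core of the interferon-stimulated response element, GAAA and GAAA with 2 bases between them, was in 0 of the 8 promoters, Mlkl included, and in 2.98% of all promoters. A loose NF-κB pattern, GGG and CC with 5 bases between them, was in 2 of the 8 (Ripk1 and Fas) and in 45.8% of all, and it overlapped none of the matches printed above. A match describes the letters of these stretches only.

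Ripk3 (ENSMUSG00000022221) encodes the kinase that phosphorylates MLKL, and it varied more between animals than between treatments. Among het controls Ripk3 was at 5.23, 26.1, 20.7, 5.48 and 19.6 CPM and stimulated het cells at 10.7, 26.6, 23.5, 9.32 and 19.0 CPM. Among KO controls it was at 14.6, 17.8, 27.8, 18.2 and 11.4 CPM and stimulated KO cells at 21.5, 29.0, 22.2, 14.7 and 12.8 CPM. The groups overlapped in both genotypes. With 16 libraries the edgeR log2 fold change was 0.29 ± 0.52 in het (adjusted p = 0.807) and 0.26 ± 0.52 in KO cells (adjusted p = 0.892). With 20 libraries it was 0.21 ± 0.42 and 0.16 ± 0.42.

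The highest of the 8 controls among the 16 libraries held 5.32 times the Ripk3 level of the lowest. The lowest pair of controls and the lowest pair of stimulated libraries came from the same animals, 1 and 9. Their 4 libraries also stood apart in cell type markers. Leukocyte markers summed to 88.5 and 68.5 CPM in animal 1 and to 328 and 209 CPM in animal 9, against 4.41 to 22.7 CPM in the other 16 libraries of the series. Lyz2 alone was at 43.2 and 17.0 CPM in animal 1 and at 215 and 103 CPM in animal 9. Fibroblast markers summed to 45.0 and 31.0 CPM in animal 1 and to 508 and 432 CPM in animal 9, below the 857 CPM or more of the others. These sums are mostly Col1a1 and Col1a2; over the 20 libraries Pdgfrb had a median of 46.2 CPM, while Pdgfra (0.760), Dcn (0.258) and Lum (0) were near 0. Tubular markers summed to 1600 to 2048 CPM there, above the others. Cdh16 alone was at 425 to 791 CPM in these libraries. Single tubular markers did not all follow the sum. Krt8 and Epcam reached 371 and 75.9 CPM in animal 8, against at most 316 and 47.3 CPM in animals 1 and 9. Whether these markers play a part in the low Ripk3 was not tested.

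Mlkl (ENSMUSG00000012519) encodes the pseudokinase that executes necroptosis. Mlkl was at 12.7, 7.15, 6.84, 7.43 and 20.9 CPM in het controls and at 198, 78.9, 73.4, 119 and 7.25 CPM in stimulated het cells. In KO cells the controls were at 9.62, 10.7, 6.37, 42.1 and 4.97 CPM and stimulated KO cells at 89.3, 88.2, 64.0, 10.2 and 87.4 CPM. Outside animals 4 and 8, every control lay at 12.7 CPM or below and every stimulated library at 64.0 CPM or above. With 16 libraries Mlkl rose 13.7-fold in het cells (log2 3.78 ± 0.35, edgeR adjusted p = 5.45e-06) and 10.3-fold in KO cells (3.37 ± 0.35, adjusted p = 1.64e-05). With 20 libraries the log2 fold changes were 3.11 ± 0.76 (edgeR adjusted p = 0.105) and 2.20 ± 0.73 (adjusted p = 0.339).

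The highest Mlkl levels, 198 and 119 CPM, were in the stimulated libraries of animals 1 and 9, those with the most leukocyte marker counts. Both also had the highest tubular and the lowest fibroblast sums of the stimulated libraries. The leukocyte sum was lower in animal 1 (68.5 CPM) than in animal 9 (209 CPM), the reverse of their Mlkl order. Single markers differed in this. Lyz2 (17.0 and 103 CPM), Adgre1 (2.85 and 29.6 CPM) and Ptprc (0.667 and 8.68 CPM) had the order of the sum. Cd68 (42.7 and 17.6 CPM) had the order of Mlkl. In the other stimulated libraries of the 16, where leukocyte markers summed to 4.41 to 8.80 CPM, Mlkl was at 64.0 to 89.3 CPM. The part of the markers in the Mlkl levels was not tested.

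Fas (ENSMUSG00000024778) encodes the death receptor. The het controls were at 4.74, 20.9, 14.2, 5.89 and 24.7 CPM and stimulated het cells at 45.1, 73.1, 64.5, 37.6 and 15.5 CPM. The KO controls were at 10.8, 17.5, 25.3, 25.0 and 20.1 CPM and stimulated KO cells at 50.3, 79.8, 45.7, 10.4 and 70.6 CPM. In each state animals 1 and 9 were the lowest of the het libraries other than those of animal 4, as for Ripk3. With 16 libraries Fas rose 4.83-fold in het cells (log2 2.27 ± 0.43, edgeR adjusted p = 0.00385) and 3.34-fold in KO cells (1.74 ± 0.42, adjusted p = 0.0222). Over 20 libraries the values were 1.75 ± 0.52 (edgeR adjusted p = 0.143) and 1.38 ± 0.52 (adjusted p = 0.400). The KO call was lost when any of KO control replicates 1, 2 or 5 or stimulated KO replicates 2 or 5 was left out, with edgeR adjusted p between 0.0531 and 0.0799, and without animals 5 and 7 (0.146).

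Fadd (ENSMUSG00000031077), the adaptor that joins Fas to caspase-8, had a narrow range. Over the 20 libraries it was lowest in stimulated het replicate 1, at 8.68 CPM, and the highest library, stimulated KO replicate 5, held 2.35 times that level. The median was 16.3 CPM in het controls, 15.1 in stimulated het, 17.2 in KO controls and 17.6 CPM in stimulated KO libraries. With 16 libraries the edgeR log2 fold change was -0.15 ± 0.20 in het (adjusted p = 0.738) and 0.27 ± 0.20 in KO cells (adjusted p = 0.588). Over 20 libraries it was -0.12 ± 0.17 and 0.17 ± 0.17 (edgeR adjusted p = 0.826 and 0.875). An antisense gene, Faddos, overlaps the annotated span of Fadd. Whether their exons overlap was not checked and the strand setting is not known, so some of its reads may be mixed in.

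Casp8 (ENSMUSG00000026029) encodes the caspase that starts apoptosis and restrains necroptosis. For het controls the levels were 85.9, 68.7, 65.1, 63.6 and 78.7 CPM, and for stimulated het cells 128, 77.6, 79.8, 85.9 and 65.9 CPM. For KO controls they were 72.6, 71.4, 65.5, 83.6 and 43.8 CPM, and for stimulated KO cells 96.8, 66.8, 72.8, 77.6 and 52.0 CPM. The groups overlapped in both genotypes, and animal 10 was lowest in both KO groups. With 16 libraries the edgeR log2 fold change was 0.39 ± 0.21 in het (adjusted p = 0.324) and 0.19 ± 0.21 in KO cells (adjusted p = 0.773). Over 20 libraries it was 0.27 ± 0.19 and 0.12 ± 0.19 (edgeR adjusted p = 0.571 and 0.946). With the animal as a replicate block Casp8 was called in het cells (0.36 ± 0.10, edgeR adjusted p = 0.0434) and not in KO cells (0.19 ± 0.10, adjusted p = 0.277). That fit includes animals 5 and 7, which the labels list under both genotypes.

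Cflar (ENSMUSG00000026031) encodes cFLIP, which pairs with caspase-8 and limits its activity. Het controls were at 98.7, 141, 98.5, 113 and 105 CPM and stimulated het cells at 294, 211, 188, 259 and 105 CPM. KO controls were at 109, 133, 140, 158 and 103 CPM and stimulated KO cells at 174, 226, 149, 129 and 204 CPM. The highest levels were those of stimulated animals 1 and 9, as for Mlkl. With 16 libraries Cflar rose 2.11-fold in het cells (log2 1.08 ± 0.18, edgeR adjusted p = 0.00112) and 1.56-fold in KO cells (0.64 ± 0.18, adjusted p = 0.0463). With 20 libraries the values were 0.93 ± 0.22 (edgeR adjusted p = 0.105) and 0.46 ± 0.22 (adjusted p = 0.562). The KO call was close to the threshold: it was lost in 12 of the 16 fits that left out 1 library (adjusted p up to 0.175), under DESeq2 size factors, with no filter on low counts, and without animals 5 and 7 (0.0694).

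The counts of Cflar per count of Casp8 show the inhibitor against its target within a library, with no length correction, so only the groups can be compared. In the 16 libraries the ratio was 1.15 to 2.05 in het controls and 2.29 to 3.01 in stimulated het cells. These ranges did not overlap. In KO cells the ranges overlapped, from 1.498 to 2.34 in controls and from 1.80 to 3.94 under stimulus. Within KO animals the ratio still rose, from 1.498 to 1.80 in animal 3, 2.13 to 3.39 in animal 6 and 2.34 to 3.94 in animal 10. It also rose in het animals 1, 2 and 9. Over 20 libraries the ranges overlapped in both genotypes, and no difference in the ratio was tested.

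Sharpin (ENSMUSG00000022552) encodes a subunit of the ubiquitin ligase that adds linear chains at the TNF receptor and holds RIPK1 in its survival role. Het controls were at 25.5, 27.4, 25.5, 24.9 and 26.7 CPM and stimulated het cells at 31.6, 30.2, 29.4, 34.4 and 26.4 CPM. KO controls were at 21.6, 22.2, 22.8, 24.6 and 27.4 CPM and stimulated KO cells at 32.0, 31.8, 32.4, 26.5 and 34.9 CPM. Like Ripk1, it moved little and evenly, and outside animals 4 and 8 no control reached the lowest stimulated library, at 29.4 CPM. With 16 libraries Sharpin rose 1.40-fold in KO cells (log2 0.48 ± 0.09, edgeR adjusted p = 0.00453). In het cells its log2 fold change was 0.28 ± 0.09 (edgeR adjusted p = 0.0865), which did not pass, whereas DESeq2 on these libraries called it (0.28, DESeq2 adjusted p = 0.0237). With 20 libraries the values were 0.23 ± 0.09 in het (edgeR adjusted p = 0.270) and 0.41 ± 0.09 in KO cells (adjusted p = 0.321). The KO call was lost without animals 5 and 7 (edgeR adjusted p = 0.115).

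**Figure D2:**
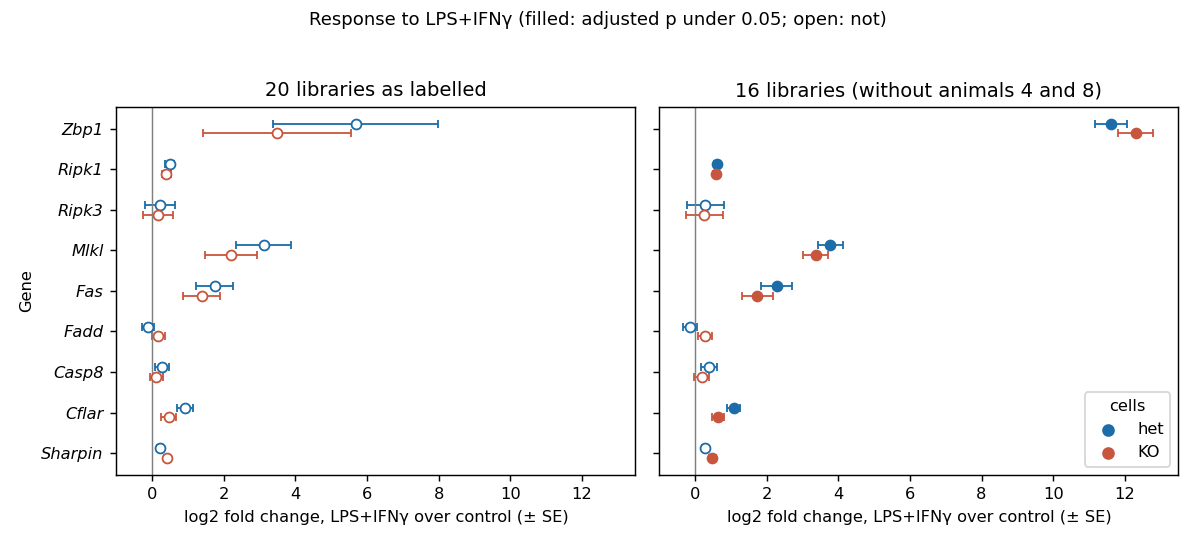
Log2 fold change of each gene after LPS+IFNγ (± SE, edgeR) in het (blue) and KO (red) cells, for all 20 libraries (left) and for the 16 without animals 4 and 8 (right); filled points have an adjusted p under 0.05. No point is filled on the left, and 5 het and 6 KO points are filled on the right; the fitted Zbp1 values depend on the prior count.

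Of the 8 animals with a control and a stimulated library in 1 genotype, 6 belong to the 16 libraries (animals 1, 2 and 9 het, animals 3, 6 and 10 KO), and these pairs set each animal against itself. The stimulated library was the higher in 6 of 6 animals for every gene but Fadd, where it was the higher in 4 of 6. How many of all tested genes were higher in 6 of 6 animals was not counted, so this has no background rate beside it. For Mlkl the within-animal difference on the log2(CPM + 0.5) scale was 3.15 to 4.01 and for Fas 1.64 to 3.12. Ripk3, which the unpaired fit did not call, was higher by 0.03 to 0.96, with a median of 0.35, and Casp8 by 0.03 to 0.57, with a median of 0.33. Cflar was higher by 0.58 to 1.57, Ripk1 by 0.48 to 0.71 and Sharpin by 0.13 to 0.56. These pairs come from the same libraries as the fits.

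**Figure D3:**
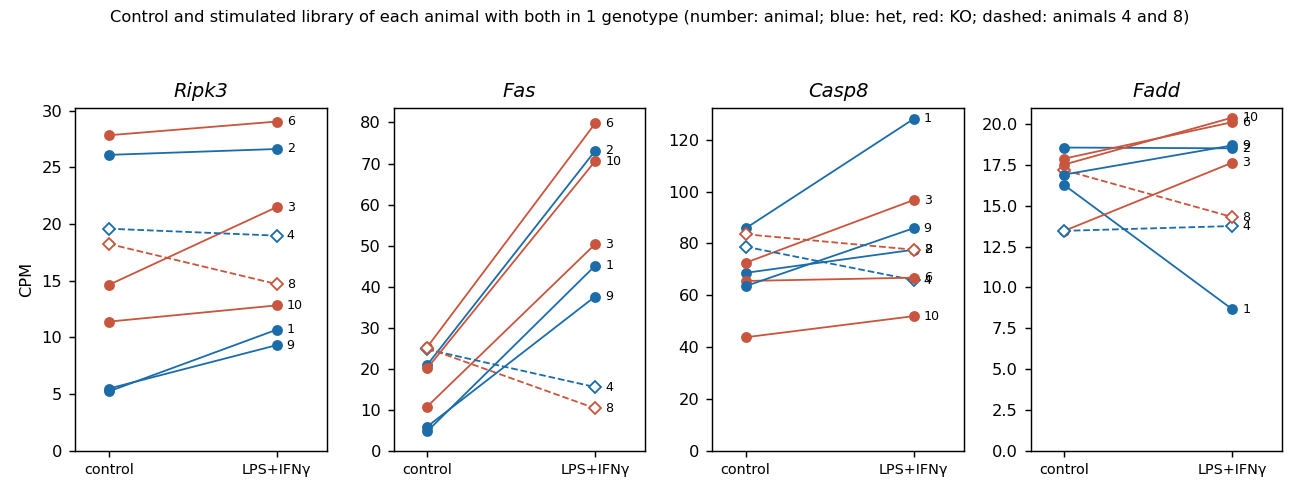
CPM of Ripk3, Fas, Casp8 and Fadd in the control and the stimulated library of each animal with both in 1 genotype (blue het, red KO, numbers are animals); dashed lines and open diamonds are animals 4 and 8. For Ripk3 the distance between animals, from 5.23 to 27.8 CPM in these controls, exceeds the rise within any animal.

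With the animal as a replicate block, edgeR on the 16 libraries called more of the 14630 genes tested. It called 2724 in het and 1968 in KO cells, against 1046 and 843 without the block. At this higher call rate over all genes, 6 of the 9 genes were called in each genotype, with Casp8 added in het cells. Ripk3 was at 0.53 ± 0.19 in het (edgeR adjusted p = 0.0822) and 0.22 ± 0.18 in KO cells (adjusted p = 0.499). With the block on all 20 libraries, 0 genes were called.

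The genotypes were compared in each state, and none of the 9 genes differed by the test. edgeR called 0% of genes between KO and het cells in controls and under stimulus, with 20 and with 16 libraries. None of the 9 had an unadjusted p under 0.05, while 499 and 366 genes had one in the 20 libraries and 774 and 787 in the 16. DESeq2 on the 20 libraries called 2 genes in controls, neither of them a member. For all 9 genes the KO and het ranges overlapped in both states. Over all genes 0.432% had separate ranges in controls and 0.213% under stimulus with 20 libraries, and 1.88% and 1.64% with 16.

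In controls of the 16 libraries, Fas had the largest KO-minus-het log2 difference among the 8 members other than Zbp1, which was near 0 counts, at 0.69 ± 0.42 (edgeR adjusted p = 0.892). The others were 0.32 ± 0.52 for Ripk3, 0.11 ± 0.17 for Cflar, 0.041 ± 0.075 for Ripk1, -0.10 ± 0.33 for Mlkl, -0.12 ± 0.20 for Fadd, -0.14 ± 0.09 for Sharpin, -0.16 ± 0.21 for Casp8 and -0.91 ± 0.84 for Zbp1. Over 20 libraries they ran from -0.13 ± 0.09 for Sharpin to 1.99 ± 1.99 for Zbp1, with Fas at 0.49 ± 0.51 (edgeR adjusted p = 0.999). Under stimulus the largest differences were -0.51 ± 0.32 for Mlkl (edgeR adjusted p = 0.748), -0.36 ± 0.21 for Casp8 and -0.33 ± 0.17 for Cflar. With the animal as a replicate block these were 0.17 ± 0.36 for Mlkl, the opposite direction, -0.083 ± 0.15 for Casp8 and -0.11 ± 0.27 for Cflar. That fit links KO to het cells only through animals 5 and 7, which the labels list under both genotypes. In the unblocked fit Fadd was at 0.30 ± 0.20, Ripk3 at 0.29 ± 0.52, Zbp1 at -0.22 ± 0.26, Fas at 0.16 ± 0.41, Sharpin at 0.064 ± 0.092 and Ripk1 at 0.0014 ± 0.075. Over 20 libraries the differences under stimulus ran from -0.49 ± 0.70 for Mlkl to 0.26 ± 0.17 for Fadd (edgeR adjusted p = 1.00). Zbp1 under stimulus was at 311 ± 68.4 CPM in het and 266 ± 37.0 CPM in KO cells (SD, n = 4). The stimulated het libraries with the highest Mlkl, Casp8 and Cflar were replicates 1 and 4, from animals 1 and 9, whose leukocyte, tubular and fibroblast markers are given above. No KO animal among the 16 libraries had leukocyte markers above 18.7 CPM. The part of the markers in these differences was not tested.

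The responses of the genotypes to the stimulus did not differ by the test either, with 0% of genes called in both sets and 138 and 224 genes under an unadjusted p of 0.05 in the 20 and the 16 libraries. With 16 libraries the KO-minus-het difference in the log2 response was -0.44 ± 0.25 for Cflar, -0.53 ± 0.58 for Fas, -0.41 ± 0.46 for Mlkl, 0.42 ± 0.28 for Fadd and 0.20 ± 0.13 for Sharpin. It was -0.20 ± 0.30 for Casp8, -0.039 ± 0.11 for Ripk1, -0.032 ± 0.73 for Ripk3 and 0.69 ± 0.85 for Zbp1. The edgeR adjusted p was 1.00 for each. Over 20 libraries the differences ran from -2.21 ± 2.71 for Zbp1 to 0.29 ± 0.25 for Fadd, with Cflar at -0.47 ± 0.31 (edgeR adjusted p = 1.00). So the edgeR call of Sharpin in KO cells and not in het cells is not a difference between the genotypes that passed a test.

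The genes whose pattern over the 20 libraries was most like that of a member were found by the root mean square difference of gene-centred log2(CPM + 0.5), for the 3 members that spanned 3 or more on that scale. For Zbp1 these were Gbp3 (0.43), Gbp2 (0.51) and Serpina3f (0.62), where the median over all genes was 4.35. Gbp2 and Gbp3 encode interferon-inducible guanylate-binding proteins. Mlkl was most like Ifih1 (0.35), the RNA sensor MDA5, Nmi (0.35) and Gsdmd (0.35), which encodes the pore-forming executioner of pyroptosis, with a median over all genes of 1.72. Fas was most like Casp12 (0.28), Nod1 (0.38) and Itpkb (0.38), with a median of 1.17. These distances describe 20 libraries that include animals 4 and 8. The medians follow the span of each member itself (9.66 for Zbp1, 5.18 for Mlkl and 3.94 for Fas). A distance below the median therefore does not by itself show a particular likeness.

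Another 38 genes of the same pathways were read from the fits, and 36 were tested; Lta and Fasl, both ligands, did not pass the filter on low counts. With 16 libraries 14 of the 36 were called higher in het and 12 in KO cells, against 5.67% and 4.81% of all genes, and 0 were called lower. The median log2 fold change was 0.35 in het and 0.27 in KO cells. With 20 libraries 0 of 36 were called in either genotype by edgeR.

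Among the ligands, Tnfsf10, which encodes TRAIL, rose in both genotypes with 16 libraries. It had 16 counts in the het controls together and 5 in the KO controls, and reached 15.8 to 72.2 CPM in stimulated het and 48.0 to 65.7 CPM in stimulated KO cells. Tnf was also called in both (edgeR adjusted p = 0.0143 and 0.0361) but stayed low. It was at 0.586 to 11.1 CPM in stimulated het cells and at 0.391 to 1.446 CPM in stimulated KO cells, and all 4 KO controls were at 0 counts.

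Of 5 receptors and adaptors only Tlr3, the endosomal receptor for double-stranded RNA, was called, at 3.06 ± 0.25 in het and 2.65 ± 0.25 in KO cells on the log2 scale. The TNF receptor gene Tnfrsf1a was at 0.44 ± 0.21 and 0.60 ± 0.21 and did not pass.

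In the complex at the TNF receptor, Traf2 was called in both genotypes, at 0.74 ± 0.17 and 0.73 ± 0.17. Birc3, the ubiquitin ligase cIAP2, was called in het cells at 1.75 ± 0.37 and not in KO cells at 1.00 ± 0.36 (edgeR adjusted p = 0.154). Rnf31, the catalytic partner of Sharpin in the linear ubiquitin ligase, rose more than Sharpin itself did, at 1.55 ± 0.24 and 1.42 ± 0.24, though that difference was not tested. Tnfaip3, which encodes the deubiquitinating enzyme A20, was called at 3.49 ± 0.48 and 2.48 ± 0.46. Spata2, an adaptor of the deubiquitinase CYLD, was at 0.17 ± 0.12 and 0.34 ± 0.12 and was not called.

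Of 7 kinases and subunits that restrain RIPK1, 2 were called in each genotype. These were Tbk1 (0.71 ± 0.10 in het and 0.54 ± 0.10 in KO cells) and its relative Ikbke. Bid, a target of caspase-8 that carries the death signal to mitochondria, was called in both genotypes, at 1.18 ± 0.33 and 1.56 ± 0.34. Adar, the RNA editor that limits ZBP1 activation, was called at 1.95 ± 0.19 and 1.81 ± 0.19. Among 5 membrane repair and alarmin genes only Chmp4b, of the ESCRT-III complex that repairs membrane damage by MLKL, was called, at 0.40 ± 0.08 and 0.54 ± 0.08.

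**Figure D4:**
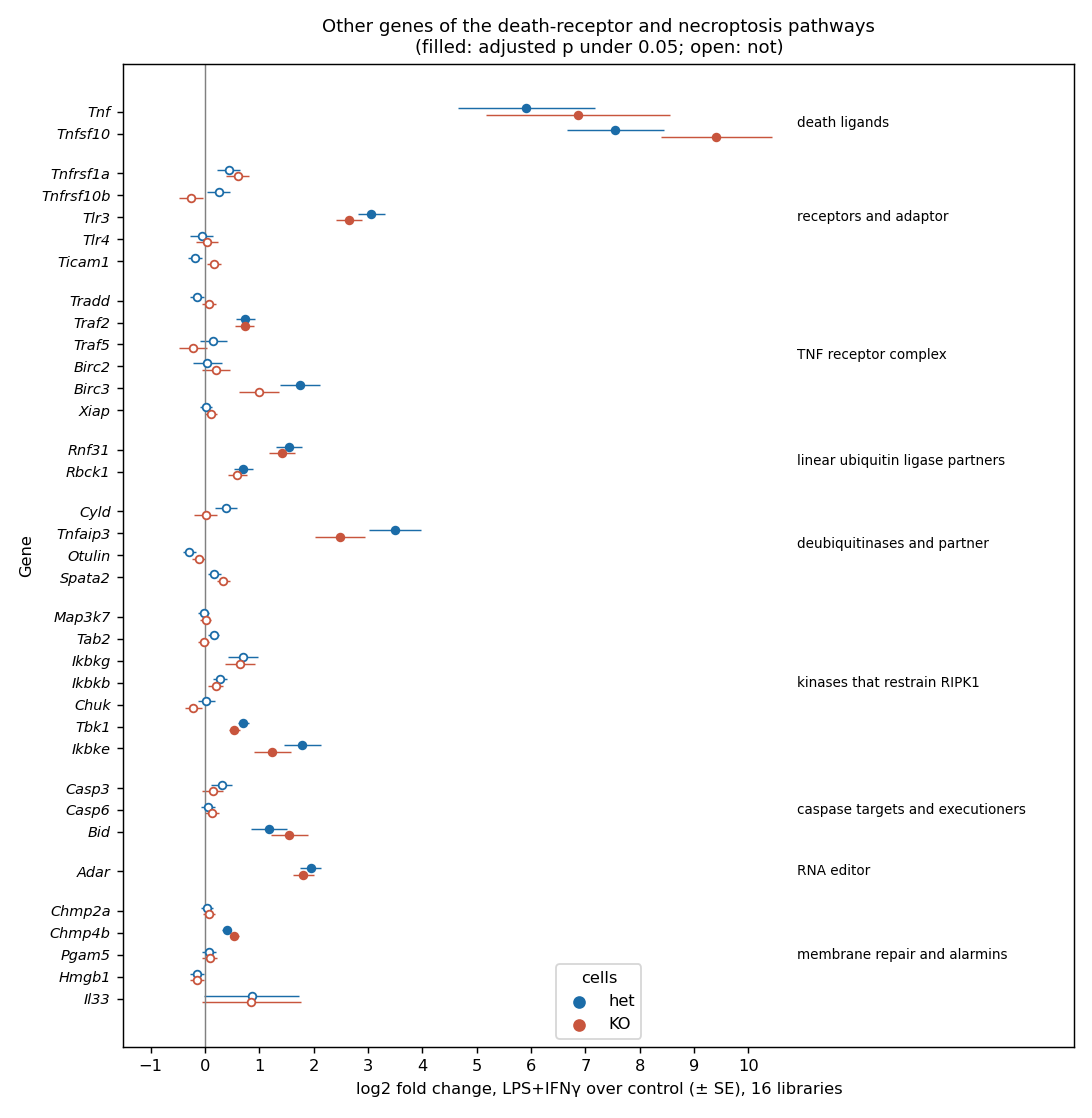
Log2 fold change after LPS+IFNγ (± SE, edgeR, 16 libraries) of the further genes of the death-receptor and necroptosis pathways by role, in het (blue) and KO (red) cells; filled points have an adjusted p under 0.05. Filled points all lie above 0, and 1 of the 36 genes tested is not shown; the Tnf and Tnfsf10 values rest on few control counts.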

How the data were processed

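RNA-seq libraries were analysed from the deposited table of estimated counts per Ensembl gene, whole numbers in all 20 columns, which the authors made from reads; Salmon 1.10.2, DESeq2 1.45.3, FastQC 0.11.9, R 4.4.1 and the genome build GRCm39 stand in the submitters' processing notes without their roles. Symbols came from a GENCODE table and matched 92.0% of IDs, holding 98.8% of counts. edgeR 4.0.16 (R 4.3.3; TMM, filterByExpr, robust quasi-likelihood, 4 group means) was run on all genes passing the filter, over 20 libraries and over 16, after being tested on simulated data. Alternatives were DESeq2 1.42.0 and its size factors, no filter, CPM of at least 1 in 10 libraries, the animal as a replicate block, and leaving out libraries or animals. SE is the absolute log2 fold change over the square root of F.

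Libraries pair by the animal named in the labels, and deviations from the group means correlated above 0.1 in 8 of 10 animals (-0.29 to 0.58; animals 4 and 8 negative). Each p-value reflects only how far these libraries spread. Members, gene lists and the 16-library set were chosen with earlier results of these data known. All 9 members are named in each comparison, and in each role of the pathway list the gene with the lowest p per genotype over 20 libraries is named, except 1 gene that is not reported here; Ikbke, Bid, Tnfrsf1a, Lta and Fasl were added after their values were seen. Count precision follows from 12899528 to 20411411 counts per library.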

Additional observations from a re-analysis of the deposited data

Results flagged for a closer look

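A library was picked out when it lay far from the others of its group by Dixon's ratio on the log2(CPM + 0.5) scale; 72 groups were tested, and chance picks out about 1 in 20. With all 20 libraries, the 8 values picked out all came from animals 4 and 8. Zbp1 stood apart at 23.8 CPM in het control replicate 5 and at 95.2 CPM in KO control replicate 4, where the other controls reached at most 0.164 CPM. It was at 0 CPM in stimulated het replicate 5 and at 0 in stimulated KO replicate 4. Ripk1 was low at 62.9 CPM in stimulated het replicate 5 and at 51.6 CPM in stimulated KO replicate 4. In stimulated KO replicate 4 Mlkl was at 10.2 CPM and Fas at 10.4 CPM.

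With 16 libraries, Mlkl stood apart at 12.7 CPM in het control replicate 1, above 6.84 to 7.43 CPM in the other het controls. Mlkl also stood apart at 64.0 CPM in stimulated KO replicate 3, below 87.4 to 89.3 CPM in the others. Replicate 3 there is from animal 7, which the labels also list as het.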

How the results depend on the processing

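All 20 libraries. edgeR called 0 genes in the 5 comparisons. DESeq2 called 483 genes (4 members) for the het response, 115 (1 member) for the KO response, 2 between the genotypes in controls and 1 for the difference between responses. Without animals 4 and 8 edgeR called 1046 genes (5 members) in het and 843 (6 members) in KO cells. Leaving out 1 library gave 0 to 744 genes and 0 to 4 members in het cells, the most without stimulated het replicate 5, and 0 to 152 genes and 0 to 2 members in KO cells, the most without stimulated KO replicate 4.

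The 16 libraries. DESeq2 called 1675 genes in het and 1321 in KO cells, the animal as a replicate block gave 2724 and 1968, and leaving out animals 5 and 7 gave 604 and 462, with 3 members instead of 6 in KO cells (Fas, Cflar and Sharpin were lost; fewer libraries remained). Leaving out 1 library gave 792 to 1123 genes in het and 583 to 1143 in KO cells. Sharpin in het cells was called by DESeq2 (log2 0.28) and without KO control replicate 5 (edgeR adjusted p = 0.0467). Zbp1, Mlkl and Ripk1 were called in both genotypes under each alternative that tested them, and so were Cflar and Fas in het cells; Zbp1 did not pass the CPM filter with 16 libraries. The block changed no member's call other than that of Casp8. The cause of these moves was not tested unless stated.

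Directions that turned, as log2 differences. None of these values passed a test. With the block, KO minus het in controls or under stimulus rests on animals 5 and 7 alone, which are listed under both genotypes. Without animals 4 and 8, KO minus het turned in controls for Zbp1 (-0.91) and Mlkl (-0.10), under stimulus for Ripk1 (0.0014), and in the response for Zbp1 (0.69). With the block on 20 libraries, KO minus het turned in controls for Zbp1 (-0.43) and Casp8 (0.045) and under stimulus for Ripk3 (-0.30), Mlkl (0.14) and Fas (-0.41). Without animals 5 and 7 it turned for Fadd in controls (0.026). With the block on 16 libraries it turned in controls for Mlkl (0.32) and Casp8 (0.085), under stimulus for Ripk1 (-0.10), Ripk3 (-0.31), Mlkl (0.17) and Fas (-0.41), and in the response for Zbp1 (-0.13). Without animals 5 and 7 the Zbp1 response also turned (-0.15). Ripk1 under stimulus, near 0 in the 16 libraries, turned under DESeq2 size factors (-0.012), DESeq2 (-0.012), no filter (-0.0088), the CPM filter (-0.010) and without animals 5 and 7 (-0.017).

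Ranges over fits that left out 1 library, for results that turned in at least 1 of them. With 20 libraries the response was -0.0059 to 0.47 for Ripk3 and -0.21 to 0.016 for Fadd in het cells, and -0.029 to 0.36 for Ripk3 and -0.0074 to 0.21 for Casp8 in KO cells. KO minus het in controls was -6.51 to 7.59 for Zbp1, -0.48 to 0.78 for Mlkl, -0.013 to 0.097 for Ripk1, -0.00079 to 0.50 for Ripk3, -0.10 to 0.035 for Fadd and -0.20 to 0.012 for Casp8. Under stimulus it was -0.55 to 0.091 for Zbp1, -0.12 to 0.062 for Ripk1, -0.0020 to 0.36 for Ripk3, -0.11 to 0.37 for Fas and -0.0045 to 0.099 for Sharpin. The difference between responses was -7.82 to 6.28 for Zbp1, -0.33 to 0.17 for Ripk3 and -0.28 to 0.033 for Casp8. With 16 libraries the het response of Fadd was -0.27 to 0.048. KO minus het was -0.017 to 0.074 for Ripk1 and -0.27 to 0.14 for Mlkl in controls, and -0.031 to 0.027 for Ripk1 under stimulus. The difference between responses was -0.078 to 0.0072 for Ripk1 and -0.50 to 0.25 for Ripk3.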
